A study of Homo sapiens with 2 samples.

Results

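Binding of MYBL2 at the replication-dependent histone genes was examined in A673, an established cell line of Ewing sarcoma, a bone and soft tissue tumour. Members were the protein-coding genes of the annotation named H1-1 to H1-6, or H2AC, H2BC, H3C or H4C with a number, and 64 of 20098 protein-coding genes carried such a name. The class was picked from the strongest peaks of the same peak list, by their fold enrichment, so all peak values below describe the library and none of them is a test. The data were 1 chromatin immunoprecipitation (ChIP-seq) library of A673 cells labelled WT, made with a rabbit monoclonal anti-MYBL2 antibody, which the methods of the study give as one to the phosphorylated, activated protein, and 1 input library of sheared chromatin from the same line without immunoprecipitation. The labels name no treatment or other allele. Neither group had a replicate, so no value has a replicate error. The deposited list held 66954 peaks on hg19, the human genome build also known as GRCh37.

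Replication-dependent histone genes supply the histones that package newly made DNA. They are switched on as cells enter S phase, lie in clusters, lack introns in their main transcript, and end their mRNA in a conserved stem-loop in place of a poly(A) tail. H2A, H2B, H3 and H4 form the nucleosome core and H1 binds the linker DNA between nucleosomes. MYBL2 is a transcription factor of the MYB family that acts in dividing cells, alone and with the MuvB complex at cell cycle promoters.

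To show what lies in front of these genes, the 150 bases before the start of the canonical transcript are printed for the member with the strongest peak of each histone type, from the GRCh37 genome. Capitals mark matches, on either strand, to the CCAAT box (CCAAT), the octamer that POU2F1 binds (ATTTGCAT), the TATA box (TATAAA), the MYB core (AACNG), the CHR element of late cell cycle promoters (TTTGAA or TTCGAA), the E2F site (TTTCCCGC, TTTGGCGC, TTTCGCGC or TTTGCCGC), the core of the H4 gene regulator HINFP (CGTCCGC) and the ETS core (CCGGAAGT), and matches that touch or overlap run together.
H1-4 (chr6:26156407-26156556, plus strand): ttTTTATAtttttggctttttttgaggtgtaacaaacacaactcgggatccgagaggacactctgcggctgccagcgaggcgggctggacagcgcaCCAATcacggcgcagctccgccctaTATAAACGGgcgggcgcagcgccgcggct
H2AC16 (chr6:27832945-27833094, plus strand): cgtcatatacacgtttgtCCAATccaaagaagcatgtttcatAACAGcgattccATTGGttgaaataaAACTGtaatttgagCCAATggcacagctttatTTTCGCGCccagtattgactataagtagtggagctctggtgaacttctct
H2BC5 (chr6:26158200-26158349, plus strand): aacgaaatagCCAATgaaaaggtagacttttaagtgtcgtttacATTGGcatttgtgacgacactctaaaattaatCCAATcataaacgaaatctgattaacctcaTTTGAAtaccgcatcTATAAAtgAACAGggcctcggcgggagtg
H3C12 (chr6:27858605-27858754, minus strand): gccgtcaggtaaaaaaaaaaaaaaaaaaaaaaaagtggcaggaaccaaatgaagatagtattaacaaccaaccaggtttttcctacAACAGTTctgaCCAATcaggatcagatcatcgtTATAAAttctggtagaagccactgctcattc
H4C3 (chr6:26104011-26104160, plus strand): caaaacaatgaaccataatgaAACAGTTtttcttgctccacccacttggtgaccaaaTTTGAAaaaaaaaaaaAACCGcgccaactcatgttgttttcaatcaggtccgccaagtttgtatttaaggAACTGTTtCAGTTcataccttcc
H2BC5 shares its strongest peak with H1-4, H2AC16 shares its own with H1-5 and H3C12 with H2AC17 and H2BC17, and these 3 summits lay nearer to the neighbour. A CCAAT box stood in 4 of these 5 stretches, the exception being H4C3. The H4C3 stretch held 6 MYB core matches, the H1-4 and H2BC5 stretches 1 each. Within AACAGTT and within AACTGTT of H4C3, matches on opposite strands overlap and are counted separately. The same stretches are shown for contrast from 3 members without a peak, namely H1-6 and H2AC1, which are known as testis-type histone genes, and H4C7.
H1-6 (chr6:26108364-26108513, minus strand): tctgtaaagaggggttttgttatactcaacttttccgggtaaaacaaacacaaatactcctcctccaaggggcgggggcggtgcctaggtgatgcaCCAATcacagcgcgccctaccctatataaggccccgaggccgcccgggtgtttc
H2AC1 (chr6:25726791-25726940, minus strand): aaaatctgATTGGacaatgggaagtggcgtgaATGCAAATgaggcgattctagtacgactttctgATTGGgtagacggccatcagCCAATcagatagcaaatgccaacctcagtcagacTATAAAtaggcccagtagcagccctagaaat
H4C7 (chr6:26247225-26247374, minus strand): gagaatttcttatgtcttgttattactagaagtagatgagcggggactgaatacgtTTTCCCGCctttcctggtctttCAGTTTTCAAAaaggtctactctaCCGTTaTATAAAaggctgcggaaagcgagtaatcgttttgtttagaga
The H2AC1 stretch held 3 CCAAT boxes, the octamer and a TATA box, and the H4C7 stretch an E2F site, 2 MYB cores, a CHR element and a TATA box. CCAAT and TATA boxes, MYB cores, the CHR element and E2F sites thus occurred in both sets.

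Over all members, the 300-base promoter windows of RefSeq (build GRCh38.p14, 250 bases before to 50 after the start) could be matched for 59 of 64. The CCAAT box stood in 84.7% of them (95% exact binomial interval 73.0 to 92.8%), against 36.6% of 15289 windows of protein-coding genes. It was in each of the 6 H1, 15 H2A, 16 H2B and 11 H3 windows and in 2 of 11 H4 windows. The octamer stood in 40.7% of member windows and 1.68% of all windows, with 11 of 15 H2A and 12 of 16 H2B windows, 1 of 11 H3 windows and none of the H1 or H4 windows. The TATA box was in 66.1% against 9.60%. The MYB core, a frequent 5-base pattern, was in 88.1% against 75.4%, the CHR element in 35.6% against 13.4% and the E2F site in 25.4% against 4.49%. The HINFP and ETS cores as spelled here were in 0 of 59 windows, against 5.62% and 6.34%. Only 1 exact spelling of each was sought, so the 0 does not tell whether other forms of these sites are present. H2A and H2B genes that face each other share promoter bases, so their windows are not independent. Of the 45 windows whose gene had a peak at its canonical transcript, 39 held a CCAAT box, 40 a MYB core and 13 an E2F site, against 11, 12 and 2 of the 14 windows without. Those 14 include H4C14, H3C14, H3C15 and H4C15, whose sequence is copied in the genome so that a peak could not be seen. H2BC18 and H3C13, also among them, lie partly in copied sequence. The 14 are thus not a set of promoters known to be unbound.

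**Figure D1:**
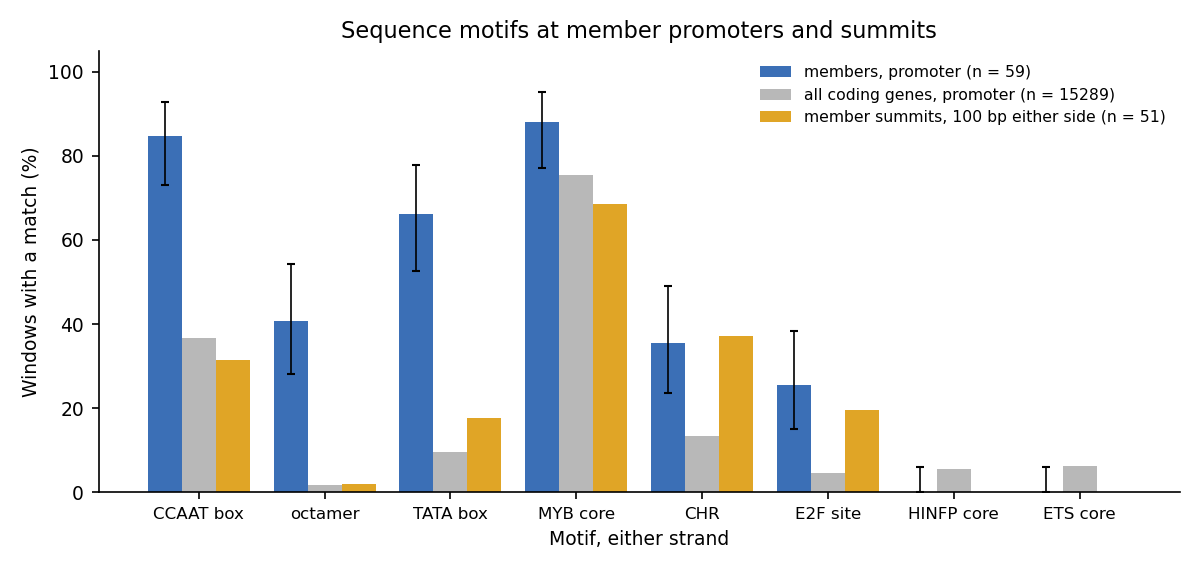
Share of windows (%) with at least 1 match to each motif on either strand, for 59 member promoters (blue, bars with 95% exact binomial intervals), 15289 promoters of protein-coding genes (grey) and 51 windows of 100 bp either side of a peak summit at members (orange). The CCAAT box, the octamer and the TATA box stood in 84.7%, 40.7% and 66.1% of member promoters and in 31.4%, 1.96% and 17.6% of summit windows.

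As a check on the class, the histone mRNA stem-loop was sought in the 150 bases after the stop codon. It was found in 64 of 64 members, 22 to 67 bases after the stop codon, and in 7 of 20034 other protein-coding genes (0.0349%). There were 10 distinct versions. The commonest, printed here because it marks the class, stood in 38 members, among them H1-4 (chr6:26157323-26157338, plus strand) and H2AC16 (chr6:27833556-27833571, plus strand).
Stem-loop of H1-4: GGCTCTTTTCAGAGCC
The 7 other genes included the histone genes H2AX and H3-4 and also HIST1H4B and HIST2H2AA3, histone genes that the annotation gives under older symbols and that the naming rule therefore leaves out.

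A peak was assigned to a gene when it overlapped the gene body or a window of 1000 bp either side of any transcription start site (TSS). Of the 64 members, 51 had a peak (79.7%, interval 67.8 to 88.7%), where 65.4% of all protein-coding genes had one. The same 51 had a peak in the promoter window, where 59.4% of all genes had one. A peak with a fold enrichment of at least 5, the ratio of ChIP fragments to local background at the summit, each plus 1, with the background set by the authors' peak caller from the input and the library, was found for 50 members and for 53.7% of all genes. A peak among the strongest 1% of the list (670 peaks, fold enrichment of at least 19.8) was found for 45 members (70.3%) and for 4.29% of all genes. The canonical TSS itself lay inside a peak in 44 members and in 48.8% of all genes. Fold enrichment is the measure that chose the class, so nothing is read from these gaps. The best peak of a member had a median fold enrichment of 37.8 (range 4.91 to 52.0), against 8.54 over all protein-coding genes with a peak.

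Many of these peaks were shared between neighbours. The 51 members drew on 76 peaks, of which 38 were among the strongest 1%, 23 among the strongest 100 and 4 among the strongest 20 of the whole list. Only 51 of the 76 peaks lay at a canonical transcript or its promoter window. The others lay along longer annotated bodies or at other annotated starts, as at H2AC6, H2BC5 and H2BC6, and enter the medians below. Of the 76, 33 were assigned to 2 or more members and 39 members shared a peak, so members are not independent observations. The median width was 1180 bp (range 165 to 5490 bp), against 319 bp over all peaks and 1465 bp over the other 632 peaks of the strongest 1%. At least 1 canonical transcript lay wholly inside 23 of these peaks, and at least 2 lay inside 5 of them. The number of fragments at the summit ranged from 12 to 245 (median 91.5). The background under the summit was at the genome-wide floor of 3.45 fragments in 45 of the 76 peaks (59.2%, against 20.3% of all peaks) and reached 7.46 at most.

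**Figure D2:**
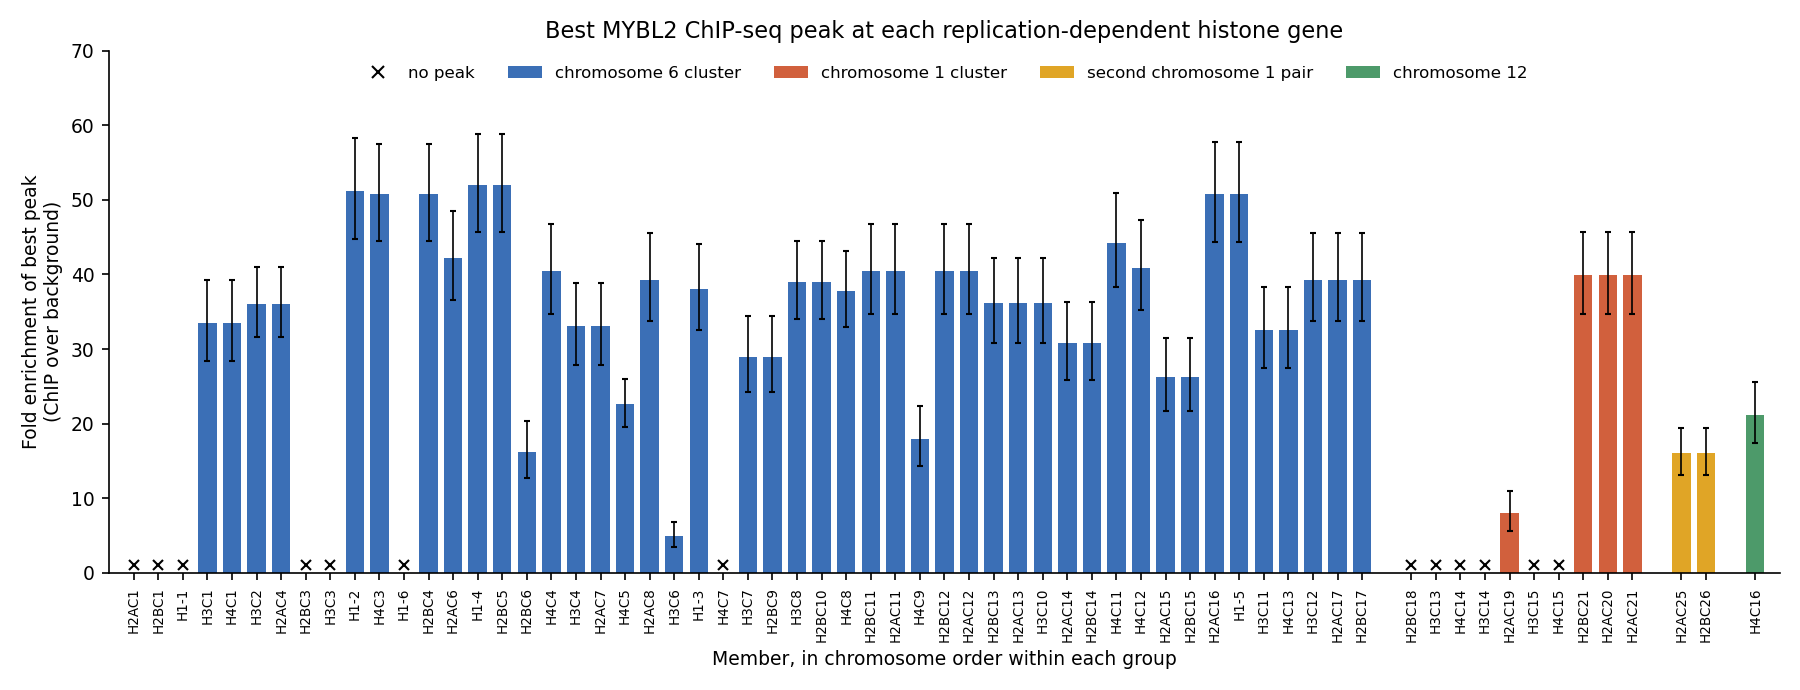
Fold enrichment of the best peak (y axis, ratio of ChIP to background) at each of the 64 members, in chromosome order within each group, with 95% Poisson intervals of the summit count as whiskers and crosses for the 13 members without a peak. On chromosome 6, 44 of 51 members had a peak, and in the main cluster on chromosome 1, 4 of 10.

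The 5 strongest peaks at members all lay in the chromosome 6 cluster. The first (chr6:26155794-26158534) covered H1-4 whole and reached into H2BC5. Its fold enrichment was 52.0 from 245 fragments (95% Poisson interval 215.3 to 277.7) over a background of 3.73, rank 10 of the whole list, and its summit lay 389 bp past the end of H1-4. The peak over H1-2 (chr6:26054236-26057134) reached 51.2 from 227 fragments, with the summit inside the transcript 656 bp after the start. The third (chr6:27833408-27835646) joined H1-5 and H2AC16, with 50.8 from 225 fragments and the summit 171 bp after the start of H1-5. The peak at H4C3 (chr6:26103371-26105244) reached 50.7 from 239 fragments, 32 bp after the start. H4C11 followed with 44.3 from 196 fragments (chr6:27792134-27793595). The intervals of all 5 fold enrichments overlap, that of H4C11 running from 38.3 to 50.9 and those of the others from 44.4 at the lowest to 58.9 at the highest, so their order was not resolved by the counts.

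The widest peaks ran across neighbouring genes. A peak of 5490 bp began inside H2BC4, crossed the shared promoter and ran through H2AC6 and beyond (chr6:26124004-26129493, fold enrichment 38.9). A peak of 5151 bp took in both H3C4 and H2AC7 whole (chr6:26194778-26199928, 33.0). The third, of 4443 bp, covered H3C8 and the start of H2BC10 (chr6:26268861-26273303, 39.0). Near the boundary of the strongest 1%, a second H2BC10 peak (20.9) and the peak between H2AC15 and H2BC15 (20.7) lay just inside, and those of H4C9 (17.97) and of H2BC13 with H2AC13 (17.3) just outside.

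By histone type, linker histone H1 had the highest median. Of the 6 H1 genes, H1-4, H1-2 and H1-5 stood at 52.0, 51.2 and 50.8 and H1-3 at 38.0 (interval 32.6 to 44.1), a median of 51.0, while H1-1 and H1-6 had no peak. H2A had a peak at 15 of 16 members, with a median of 39.3. H2AC16 (50.8) and H2AC6 (42.3) were highest, and H2AC25 (16.1) and H2AC19 (7.97) lowest. The summits of the first pair lay at neighbours, inside H1-5 and past the end of H2BC4, and the peaks with a summit inside H2AC16 and H2AC6 themselves had 24.5 and 38.9. H2B had a peak at 13 of 16, with a median of 39.0. H2BC5 (52.0) and H2BC4 (50.7) led, and H2BC6 (16.2) and H2BC26 (16.1) closed the list. The H2BC5 value is that of the H1-4 peak, and the peak with its summit at H2BC5 had 37.7. The annotated body of H2BC4 spans 37610 bp and takes in H4C3, whose peak it was given by the rule. At its own 460 bp canonical transcript the best peak had a fold enrichment of 42.3. Likewise the peak given to H2BC6 lay at a distant annotated start, its summit 11642 bp upstream of the canonical one, and the canonical transcript had none.

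H3 genes had a peak at 9 of 13 members and a median of 33.5. H3C12 (39.3) and H3C8 (39.0) were highest, and H3C7 (29.0) and H3C6 (4.91) lowest. The H3C12 peak covered that gene whole, but its summit lay 32 bp after the start of H2AC17. H3C6 stood apart from the other 8 H3 genes with a peak, which ranged from 29.0 upward. Its peak held 36 fragments (interval 25.2 to 49.8) over a background of 6.53, and the summit lay 1015 bp before the canonical start, outside the canonical transcript. H3C6 has 2 annotated starts, and this summit (chr6:26224348) lay near the outer one (chr6:26224427). H4 genes had a peak at 10 of 13 members and a median of 35.6. H4C3 (50.7) and H4C11 (44.3) were highest, and H4C16 (21.2) and H4C9 (17.97) lowest. The medians of the types other than H1 lay between 33.5 and 39.3 and so differed by less than the members within each of these types, which for H4 ran from 17.97 to 50.7. Requiring the summit itself in the window moved the H2B median to 30.8, below that of H3 (34.8), and left H1 highest at 50.8.

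**Figure D3:**
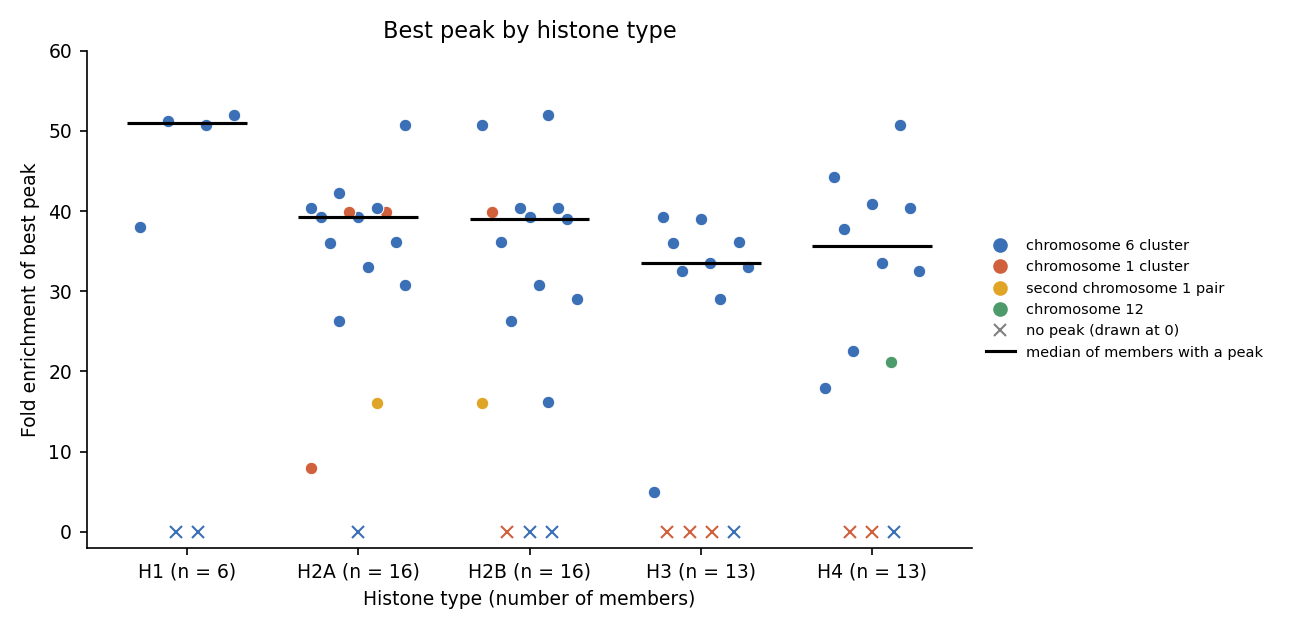
Fold enrichment of the best peak (y axis) by histone type, 1 point per member, coloured by chromosomal group, with the median of members with a peak as a line and members without a peak as crosses at 0. H1 had the highest median, 51.0 over 4 members with a peak, and those of H2A, H2B, H3 and H4 were 39.3, 39.0, 33.5 and 35.6.

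On chromosome 6, members spanned 2138 kb (chr6:25723625-27861669), and 44 of 51 had a peak (86.3%, interval 73.7 to 94.3%) with a median fold enrichment of 37.9. Split at gaps of over 100 kb, the cluster fell into 4 blocks. The first held only H2AC1 and H2BC1, and neither had a peak. In the block from H1-1 to H4C8, 23 of 28 members over 268.5 kb had one (median 37.8). In the short block from H2BC11 to H2AC12, 5 of 5 members over 15.2 kb did (median 40.4), and in the last, from H2BC13 to H2BC17, 16 of 16 members over 86.4 kb (median 36.2). Of the 125 peaks of the whole interval, 64 were at members, some of them only along longer annotated bodies or at other annotated starts. These 64 had a median fold enrichment of 21.0, with 34 in the strongest 1%. The 61 elsewhere had a median of 4.49, with 2 in the strongest 1%.

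Of those 2, the stronger lay at HIST1H4B, an H4 gene by its older symbol, with a fold enrichment of 45.7 (interval 39.8 to 52.2), and the other at ABT1, a factor of basal transcription (21.3). Of the 21 protein-coding genes between the members of the chromosome 6 cluster, 12 had a promoter peak, 10 of them a peak that belonged to no member. The next strongest of these was at ZNF184, a zinc finger gene (11.9). The 4 SLC17 phosphate transporter genes at the start of the cluster had no promoter peak. Of the 6 butyrophilin genes, BTN3A2, BTN3A1 and BTN2A1 had one, with fold enrichments from 2.95 to 3.82, and 3 had none.

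On chromosome 1, the main cluster spanned 105.3 kb (chr1:149754245-149859515), and 4 of 10 members had a peak (40%, interval 12.2 to 73.8%), with a median fold enrichment of 39.9. Of these, H2BC21, H2AC20 and H2AC21 shared 1 best peak (chr1:149858054-149858650, fold enrichment 39.9 from 207 fragments), 31 bp before the start of H2AC20, and 2 further peaks over these genes reached 36.5 and 30.5. H2AC19 had a peak of 7.97 from 35 fragments (interval 24.4 to 48.7), with the summit 952 bp before its start and no peak over the gene. H2BC18, H3C13, H4C14, H3C14, H3C15 and H4C15 had none. Counted once for each best peak, the chromosome 6 members gave 27 peaks with a median of 38.0 and the chromosome 1 cluster 2 peaks with a median of 24.0. HIST2H2AA3, an H2A gene of the same cluster under its older symbol, had a promoter peak of 4.90. The second pair on chromosome 1, H2AC25 and H2BC26, shared a peak of 16.1 over their starts, and the lone H4C16 on chromosome 12 had 21.2.

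Part of the chromosome 1 cluster is duplicated in the genome, and reads that fit several places fall below the mapping quality of 20 that the authors required. For each base of a member's canonical transcript and promoter window, the share of the 100-base words across it that occur once in the genome was counted, 100 bases being the read length. That share was 0% over H4C14, H3C14, H3C15 and H4C15, 14.5% over H2AC19, 61.3% over H2BC18 and 58.7% over H3C13, and 94.8 to 97.5% over H2AC20, H2BC21 and H2AC21. Without unique words a peak could not be seen, so for the first 4 genes binding was not measurable here. The H2AC19 peak lay 758 bp from the transcript. All words were unique in 40 of the 64 members, none of which was in the chromosome 1 cluster, and 33 of these 40 had a peak (median 39.0), against 18 of the other 24 (median 33.5). How far copies set the low count on chromosome 1 was not tested.

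The 7 members of the chromosome 6 cluster without a peak had unique words throughout. They were H2AC1, H2BC1 and H1-6, and H1-1, H2BC3, H3C3 and H4C7. The nearest peak in the list lay 10948 bp from H2AC1, 11662 bp from H2BC1, 8809 bp from H2BC3, 6653 bp from H3C3, 2463 bp from H1-1, 2396 bp from H1-6 and 1630 bp from H4C7. H1-6 thus sat close to the H4C3 peak, which was the one 2396 bp away and ranked 16 of the whole list.

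H1-6 (linker histone H1t), H2AC1 and H2BC1 are known as testis-type histone genes, made in the male germ line. None of these 3 had a peak (0 of 3, exact interval up to 70.8%), nor did H3-4, the testis H3 gene on chromosome 1 that lies outside the naming rule. Among the other members 51 of 61 had a peak (83.6%). The testis-type genes carried the stem-loop of the class, 32 to 48 bases after the stop codon. H2AC1 and H2BC1 face each other across 214 bp, and theirs was the only 1 of 11 facing pairs with no peak between the starts. No RNA level was analysed here, so the state of these genes in A673 cells is not known from these data.

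Within the genes, summits fell in 2 places. Measured over the 51 distinct peaks at canonical transcripts, from the start of the nearest member, 5 summits lay up to 250 bp before the start and 14 lay 0 to 250 bp after it. None lay 251 to 450 bp after the start, 26 lay 451 to 750 bp after it and 1 further on, while 5 lay more than 250 bp before it. These bounds were chosen after the values were seen. Part of the empty stretch had no peak to hold a summit in H2B genes. At 275 bp after the start, 0% of 12 H2B genes lay in a peak. The share there was 53.3% of 15 H2A, 88.9% of 9 H3, 100% of 10 H4 and 100% of 4 H1 genes. Whether the missing coverage set the empty stretch was not tested. Canonical transcripts of the class are short, that of H2BC21 (2224 bp) excepted. By the end of the transcript, 22 of the 51 summits (43.1%) lay 0 to 250 bp past it and 17 inside the gene. The H2BC21 summit, 556 bp after the start and 69 bp past the stem-loop, counted as inside by that length. The 24 summits past an end lay a median of 75.5 bp beyond it (range 7 to 389 bp). The end position was held by 10 of 14 summits nearest to H2B genes and 5 of 7 nearest to H3 genes, but by 5 of 16 at H2A, 2 of 10 at H4 and 0 of 4 at H1 genes. The 2 at H4 genes were those of H4C11 and H4C12. Unique words made up 31.4% and 31.0% over their transcripts, and peaks covered only the last part. H2AC14, among the H2A genes with an end summit, had 51.1%. Whether copies set these positions was not tested. Of the 10 summits at H4 genes, 4 lay 0 to 250 bp after the start, those of H4C3, H4C4, H4C5 and H4C8.

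Other short genes were set beside these. Taking the best peak of each, 11 of 50 members (22%) had the summit 0 to 250 bp past their own end, against 6 of 139 other protein-coding genes with a canonical transcript of at most 1500 bp and a peak (4.32%). The groups were not matched for length. H2BC21 aside, the longest canonical transcript of a member was 797 bp (H1-5). A summit past the end of a member could thus lie inside a longer gene at the same distance from the start. The summit was inside the transcript in 24% of members and 38.8% of the other genes. Members lie close together and share peaks, so a summit past the end of one may be before the start of the next. The stem-loop itself lay inside a peak in 48 of the 50 members with a peak at the canonical transcript, the exceptions being H2AC19 and H3C6, and the nearest summit was a median of 244.5 bp from it. In the windows of 100 bp either side of the summit, the CCAAT box was found at 9 of the 19 summits within 250 bp of a start and at 4 of the 22 just past an end. The E2F site was found at 9 and 1 of these, the MYB core at 13 and 14, and the CHR element at 4 and 11. Summits of other peaks were not counted, so these numbers have no base rate beside them.

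**Figure D4:**
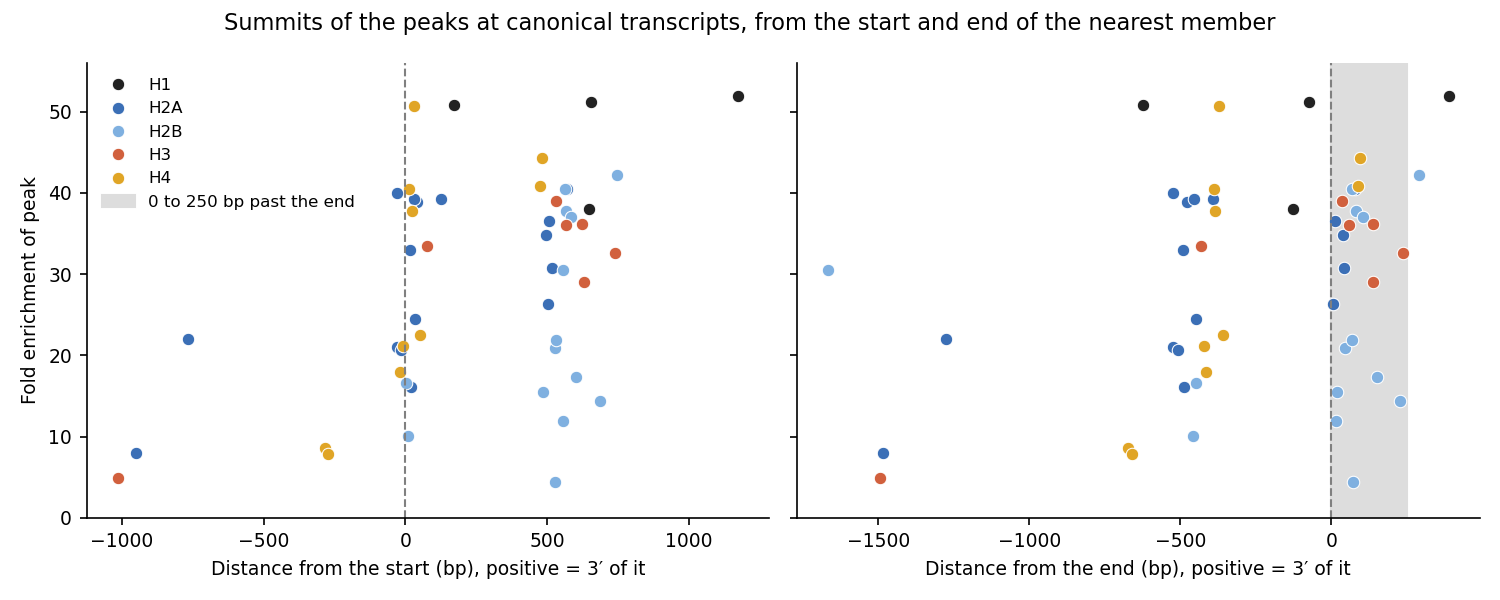
Fold enrichment of the 51 peaks at canonical transcripts (y axis) against the distance of the summit in bp from the start (left) and from the end (right) of the nearest member, coloured by its histone type, positive values lying 3′. Summits gathered near the start and 451 to 750 bp after it with 0 between 251 and 450 bp, and 22 lay in the shaded stretch up to 250 bp past the end. At 275 bp after the start, 0% of 12 H2B genes lay in a peak.

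Peaks over H2B genes were interrupted inside the gene. All 12 H2B genes with a peak at the canonical transcript had a peak over the start and another over the end, with an uncovered stretch between them that began 117 to 211 bp after the start (median 163.5) and closed 293 to 400 bp after it (median 311). At H2BC5, for example, the stretch ran from 185 to 337 bp and at H2BC14 from 161 to 312 bp. Of the 14 H2A genes with a peak over the transcript, 4 (H2AC20, H2AC11, H2AC15 and H2AC16) had such a gap, from 171 to 183 up to 290 to 329 bp after the start. A further 8 were covered whole, and H2AC13 and H2AC14 were covered only toward the end. All 4 H1 genes and 8 of 8 H3 genes were covered whole, as were 8 of 10 H4 genes. The other H4 genes, H4C11 and H4C12, had peaks over the last 32.1% and 30.5% of the transcript. At 250 bp after the start, 0% of the 12 H2B genes lay in a peak, against 53.3% of 15 H2A, 80% of 10 H4, 88.9% of 9 H3 and 100% of 4 H1 genes. At 500 bp before the start of H2A genes, a position that in facing pairs falls inside the H2B gene, the share was 20%.

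Members of 1 type resemble each other in their coding sequence, and so similar words were counted beside the gaps. A word of 100 bases was called a near-copy where another member of the same type, aligned at the start codon, differed by at most 2 bases. Near-copies made up 0% of coding words in H1 genes, 17.1% in H2A, 27.3% in H2B, 19.3% in H3 and 30.9% in H4 genes. All those of H3 were in H3C13, H3C14 and H3C15, which had no peak, and those of H4 in H4C14, H4C15, H4C11 and H4C12, so that the share over members with a peak at the canonical transcript was 0% in H3 and 20% in H4. Of the 48 members with a peak over the canonical transcript, 28 were covered whole, of which 26 held no near-copy, and H2AC12 and H2AC17 did. Of the 20 not covered whole, 18 had near-copies over 40.4 to 100% of the uncovered bases, while H2BC14 and H2AC16 had none. A base counted here when any near-copy word crossed it, so few words can span much of a gap. At H2BC9, 2 of 282 words spanned 78.9% of the gap, and at H2BC21, 177 of 282 spanned 100%. H2AC12 and H2AC17, covered whole, held 5 and 4 such words. In the covered bases of the 20 genes the share ran from 0% (H2BC9) to 65.6% (H2BC13). By the median number of mismatches to the nearest member, however, the gap was closer to another member than the covered part in 9 of the 16 split genes, equal in 2 and less close in 5 (medians from 1 to 8 in gaps and from 2 to 11 outside). Copies outside the class, such as pseudogenes, entered only the count of exact words. Whether the mapping filter, the similar words or the peak caller made these gaps was not tested.

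**Figure D5:**
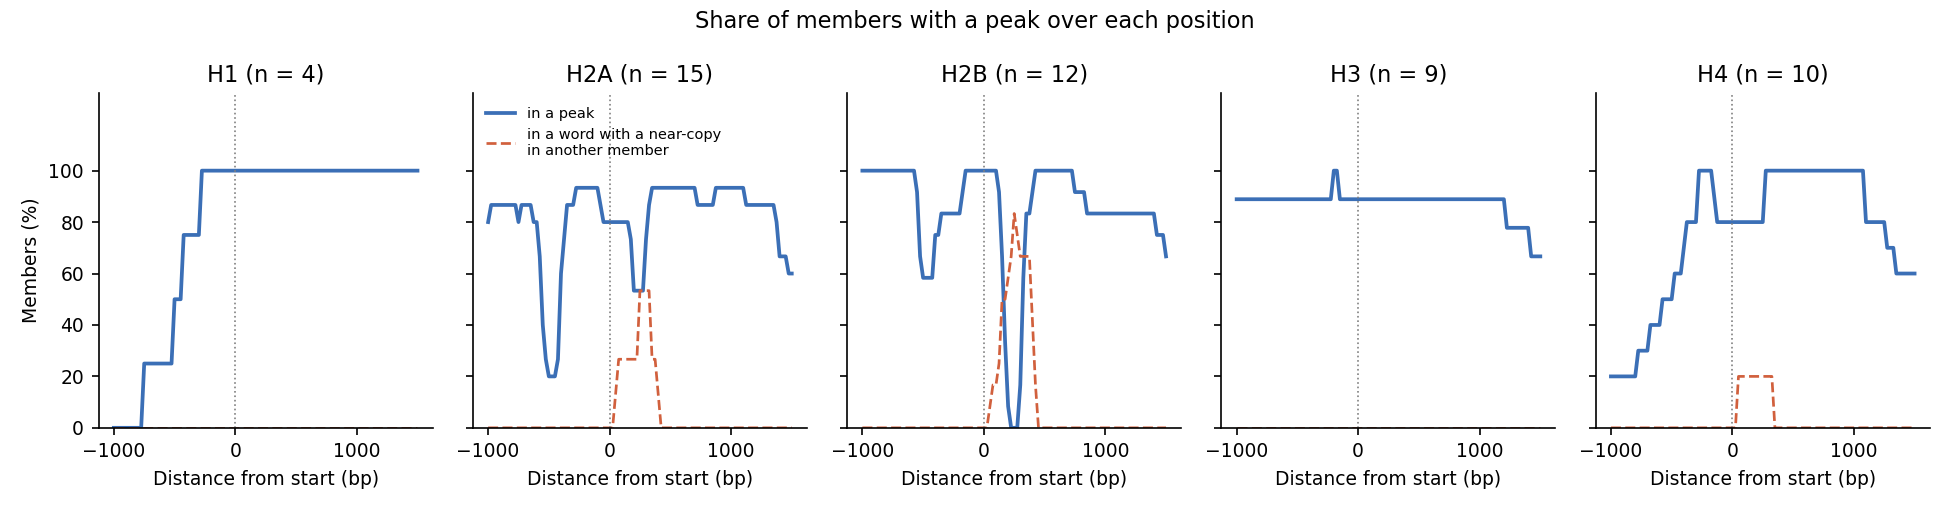
Share of members (%, y axis) with a peak over each position (blue) and with a 100-base word within 2 mismatches of another member of the type (dashed orange), by distance from the canonical start in bp, for members with a peak at the canonical transcript. In the H2B panel the peak line fell to 0% at 250 bp, where 83.3% of the 12 genes lay in such a word, and in the H3 panel it stayed at 88.9% with 0% near-copies.

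Many H2A and H2B genes are arranged head to head and share a promoter. There were 11 such pairs with starts up to 1000 bp apart, 10 of an H2A with an H2B gene and 1 of H3C7 with H2BC9, and the space between the starts ran from 193 to 978 bp. A peak overlapped that space in 10 of 11, but only 3 pairs, H2BC21 with H2AC20, H2BC11 with H2AC11 and H2AC15 with H2BC15, had a summit in it. A peak was counted as past an end only where its summit lay beyond that end. At H2BC11 and H2AC11 the peak between the starts had a fold enrichment of 21.1. The peaks past the ends reached 37.1 on the H2BC11 side and 40.4 on the H2AC11 side. At H2BC13 and H2AC13 the values were 16.6 between, 17.3 past H2BC13 and 36.2 past H2AC13, the last from a peak that also covered H3C10. The summit of that peak lay 2007 bp past the end of H2AC13 and 138 bp past the end of H3C10. The intervals of the first and second values overlap (13.1 to 20.8 and 13.7 to 21.6). At H2AC14 and H2BC14 they were 10.1 between, 30.8 past H2AC14 and 15.5 past H2BC14. Of the 6 pairs with a peak past both ends, the stronger end peak exceeded the one between the starts in 5. For H2BC13 with H2AC13 that end peak was the one nearest to H3C10. In H3C7 with H2BC9 the peak between the starts (29.0) was also the one past H3C7, above 14.4 past H2BC9. In 3 pairs with a summit past 1 end alone, the peak between the starts was stronger than the one past that end. It had 39.9 against 36.5 past H2AC20 at H2BC21 and H2AC20, 39.3 against 21.9 past H2BC17 at H2AC17 and H2BC17, and 16.1 against 4.41 past H2BC26 at H2AC25 and H2BC26. Peaks also ran over the other ends of these pairs, with summits inside the genes. At H2BC21 this was a further peak of 30.5, and at H2AC17 and H2AC25 it was the peak between the starts. The remaining pair with a peak, H2BC4 with H2AC6, had 38.9 between and 42.3 past H2BC4.

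Other genes of histone supply were set beside the class. Of 12 replication-independent histone genes, which are transcribed outside S phase as well, 11 had a promoter peak, with a median fold enrichment of 17.7, and 5 were in the strongest 1%. These were H2AX, the histone phosphorylated at DNA breaks (33.7), H3-3B, which makes histone H3.3 (32.0), H2AZ1, a variant of promoter nucleosomes (29.0), CENPA, the centromere histone (21.3), and H1-10, a linker variant (21.1). H3-3A, the second H3.3 gene, had 10.6 and H2AJ 3.91, and H3-5 had none. H2AX was also the 1 gene of this list with the stem-loop.

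Of 14 genes for factors that act on histone genes or their mRNA, 13 had a promoter peak, from 6.29 to 13.1 in fold enrichment (median 11.5) and with 0 in the strongest 1%. NPAT, the coactivator of histone gene transcription, stood at 10.1, CASP8AP2, which works with it, at 12.4 and HINFP at 6.29. SLBP, which binds the stem-loop, had 11.5, and ZNF473 (13.1) and LSM10 (12.3), both of the machinery of the U7 small nuclear RNA that guides the 3′ cut, were near the top. LSM11, of the same machinery, had no peak. CPSF2 (9.99) and CPSF3 (9.09), of the cleavage complex, and ERI1 (7.04), a nuclease of histone mRNA, lay lower. All 13 fell below the median of the members (37.8), a class picked for high values. Over all protein-coding genes 59.4% had a promoter peak, with a median fold enrichment of 8.67, and 4.29% a peak in the strongest 1%.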

How the data were processed

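ChIP-seq of MYBL2 and an input library of A673 cells gave 2 samples, 1 per group. By the submitters' processing notes and published methods, single-end reads of 100 bases were aligned to hg19 with Bowtie2 2.1.10. The authors required a mapping quality of 20, and called narrow peaks with MACS2 2.0.10 against the input at a false discovery rate of 0.05. Which peaks a later cleaning of the list removed is not given in the sources used here. The deposited values were, for each of 66954 peaks, the fold enrichment as a linear ratio of ChIP over local background with 1 added to each, the −log10 p and −log10 q of the caller, a score of 10 times the −log10 q, and the summit offset. No read counts or coverage were used.

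Genes came from GENCODE 44 lifted to GRCh37, and 0 peaks lay beyond a chromosome end. The fragment count and background at each summit were recovered from the deposited fold enrichment and p (66954 of 66954 peaks solved by a whole number, largest misfit 3.49e-05 in −log10 p), a step tested on simulated data. Their 95% Poisson intervals, and exact binomial intervals of shares, cover counting error only. The binomial intervals treat members as independent, which genes that share a peak or a promoter are not. Canonical transcripts were the annotation's. Clusters joined members less than 1 Mb apart. Sequences were read with samtools 1.23.1 and values computed in Python 3.11.15 (pandas 2.3.3, numpy 2.4.6, scipy 1.17.1).

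Members, gene lists and measures were chosen with earlier results of these data known, so no test was made. Named members were those with the 2 largest and 2 smallest fold enrichments of each type, every member without a peak, the testis-type members, those of the 5 strongest and 3 widest peaks, and the neighbours of the boundary of the strongest 1%. Members named for a gap, a pair or a summit place, the split genes included, were chosen after their values were seen. Alternatives were other peak thresholds, windows, start sites, a summit rule, unique members and single peaks.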

Additional observations from a re-analysis of the deposited data

How the results depend on the processing

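No paired analysis was possible because ChIP and input had a single library each, and there were no replicates to leave out. Where all members were kept, counts of those with a peak ranged from 46 to 53 (46 when the summit had to lie in the window, 53 when HIST1H4B and HIST2H2AA3 were added, a choice made after seeing the data, like the use of canonical transcripts alone, which gave 50), against 51. The median fold enrichment of the best peak ranged from 36.4 to 39.0, against 37.8, and testis-type members with a peak stayed at 0. The gap between the chromosome 6 and chromosome 1 clusters, 46.3 percentage points, ranged from 36.5 to 56.3, and could not be had for members without an exact copy, since chromosome 1 has none. Each of these gaps counts H4C14, H3C14, H3C15 and H4C15, where binding was not measurable, as chromosome 1 members without a peak. Leaving out only those genes was not tried, so the range does not cover that choice. The difference of the median fold enrichments of the clusters, chromosome 6 minus chromosome 1, was -2.06 and became 14.0 with each peak counted once, which leaves 2 peaks on chromosome 1. The spread between the highest and lowest type median went from 17.5 to 20.0 by the summit rule. The median summit distance of 483 bp was 474 bp from the nearest canonical or outermost start and 171 bp from the nearest of any annotated start. From the promoter to the 200 bp around the summits, the share with a CCAAT box went from 84.7% to 31.4%, the octamer from 40.7% to 1.96%, the TATA box from 66.1% to 17.6% and the MYB core from 88.1% to 68.6%, in shorter windows of which many lie past the gene. The causes of these changes were not tested. A single library, the mapping filter and peaks shared by neighbouring genes limit what can be told of any 1 member.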
